A study of Mus musculus with 2 samples.

Results

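The 9 genes described here are the T cell chemokines Xcl1, Ccl3, Ccl4 and Ccl5, the cytokines Csf2 and Ifng, and the tumour necrosis factor family members Tnf, Ltb and Lta. They were taken by gene symbol from the 32285 genes of the deposited tables, where each symbol occurs once. The tables hold unique molecular identifier (UMI) counts from 2 single-cell 3' libraries of mouse bone marrow, 1 from C57BL/6 wild-type mice (labelled WT) and 1 from Irf4-/- mice, which by their label lack the transcription factor gene Irf4, with no word in the sources on which part of it is deleted. Both sorts were meant to collect natural killer progenitors (NKP), cells that carry CD122, the product of Il2rb, and lack NK1.1, Ncr1, c-kit, Sca-1 and lineage markers. The sources used here do not state age, sex, the number of mice per library or the strain background of the Irf4-/- mice. The design implies 1 comparison, of the sorted cells from Irf4-/- mice with those from WT mice.

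Ccl3, Ccl4 and Ccl5 draw leukocytes to sites of inflammation, and Xcl1 draws dendritic cells that carry Xcr1. Csf2 (GM-CSF) acts on myeloid cells and Ifng (interferon gamma) on macrophages and many other cells. Tnf and Lta are ligands of the tumour necrosis factor receptors, and Ltb joins Lta in a surface complex that signals through Ltbr. T cells release most of these products after stimulation of the antigen receptor or by other cytokines, memory-like cells hold Ccl5 message at rest, and AU-rich elements in the 3' untranslated region shorten the life of several of the messages.

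Most sorted cells were T cells by their transcripts, not natural killer progenitors. A cell was taken as CD3-positive with at least 3 UMIs summed over Cd3d, Cd3e and Cd3g and under 2 of the B cell gene Cd79a. In the library labelled Irf4-/- 6714 of the 7955 cells kept (84.4%) met this, as did 11167 of 12367 (90.3%) in that labelled WT. In what follows, where 2 values stand together, the first is from the library labelled Irf4-/- and the second from that labelled WT. The median CD3-positive cell had 9913 and 7251 UMIs, and 27 barcodes occurred in both libraries. The CD3-positive cells held 195 and 95 UMIs of Irf4 itself (2.67 and 1.08 CPM, UMIs per 1000000 UMIs of the same cells), the higher level being in the Irf4-/- one. Since a 3' count may lie outside the deleted part, it does not check the genotype. An exchange of the 2 labels was not tested, and would turn the sign of every ratio given here. With 1 library per genotype no difference has a replicate check, no test was made, and all intervals are 95% intervals that cover counting error only.

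The CD3-positive cells were divided by UMI thresholds into 5 classes, which are gates and not clusters. Gamma-delta T cells had at least 2 Trdc UMIs (853 and 1392 cells). The rest were divided by at least 2 UMIs of Cd8b1, a chain of CD8, and of Klre1, a lectin-like natural killer receptor. They were Cd8b1 only (1579 and 5322 cells), Cd8b1 and Klre1 (611 and 421), Klre1 only (1498 and 627) and other T cells (2173 and 3405). Cd8b1-only cells made up 23.5% of the CD3-positive cells labelled Irf4-/- and 47.7% of those labelled WT, and Klre1-only cells 22.3% and 5.61%. The gates depend on depth, which differed between the libraries. After each cell was thinned to 2000 UMIs, Cd8b1 was found in 23.9% and 44.2% of all CD3-positive cells and Klre1 in 21.1% and 8.43%. The part of depth in the class shares was not tested further. In the thinned cells Trdc was found in 82.6% and 85.2% of the gamma-delta class. Trac, of the alpha-beta receptor, was found in 17.0% and 20.8% of that class, against 59.7% to 62.6% in the other classes. Cd4 was found in at most 0.442% of the cells of any class and Ncr1 in at most 0.469%. B cells (at least 3 Cd79a UMIs and under 2 CD3 UMIs, 1032 and 894 cells) served as the comparison for free RNA.

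Xcl1 and Csf2 were higher and Ltb slightly lower in the library labelled Irf4-/- in each of the 5 classes, and their promoters are shown to set these 3 side by side. Sequences are from RefSeq (GRCm38.p6), from 250 bases before to 50 bases after the annotated start, 5′ to 3′ on the gene's strand. RefSeq entries were matched for 7 of the 9 genes, not for Ccl4 and Ccl5. Capitals mark a match to the NF-kB motif (GGGA, any 4 bases, then CC) on either strand, which 20.7% of 32851 promoters of this length hold.
Xcl1, chr1:164935473-164935772, minus strand: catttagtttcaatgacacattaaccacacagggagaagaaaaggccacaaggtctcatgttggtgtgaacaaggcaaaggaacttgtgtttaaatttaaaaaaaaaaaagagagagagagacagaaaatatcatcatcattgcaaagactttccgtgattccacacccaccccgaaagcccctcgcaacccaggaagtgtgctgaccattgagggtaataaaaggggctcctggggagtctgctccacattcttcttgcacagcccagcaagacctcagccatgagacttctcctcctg
Csf2, chr11:54249850-54250149, minus strand: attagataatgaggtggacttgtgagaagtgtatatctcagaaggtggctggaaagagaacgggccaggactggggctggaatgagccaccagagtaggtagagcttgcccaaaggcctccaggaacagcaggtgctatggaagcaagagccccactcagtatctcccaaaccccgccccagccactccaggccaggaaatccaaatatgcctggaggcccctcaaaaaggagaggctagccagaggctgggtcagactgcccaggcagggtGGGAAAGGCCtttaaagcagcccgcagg
Ltb, chr17:35194257-35194556, plus strand: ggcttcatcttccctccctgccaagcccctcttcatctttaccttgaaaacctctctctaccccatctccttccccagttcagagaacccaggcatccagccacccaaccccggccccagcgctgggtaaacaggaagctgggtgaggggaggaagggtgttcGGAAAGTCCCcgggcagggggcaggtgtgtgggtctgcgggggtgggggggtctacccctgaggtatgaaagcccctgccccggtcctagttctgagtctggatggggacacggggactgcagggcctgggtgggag
The Csf2 match begins 22 bases after the RefSeq start of Csf2 and the Ltb match 87 bases before that of Ltb. Xcl1 had no match to any of the motifs searched on both strands, which were also TGANTCA for AP-1 (in 7.81% of promoters), an interferon regulatory factor motif (GAAA, any 2 bases, then GAAA, in 3.44%), GGAAAA for NFAT (23.4%) and TATAAA (13.6%). Of the other 4 promoters, that of Tnf held 1 NF-kB, 2 NFAT and 1 TATAAA match, Ccl3 held 1 NFAT match, and Ifng and Lta held 1 TATAAA match each. The Ifng match begins 30 bases before the start. No AP-1 or interferon regulatory factor match was found in the 7 windows, which says only that these letters are not in them. The RefSeq start sites of Xcl1, Ccl3, Csf2 and Ltb differ from those of the GENCODE M21 annotation. For Csf2, whose GENCODE start is at chr11:54249667, the whole window printed here lies upstream of that start. Its matches, and the motifs not found in it, therefore do not describe the bases next to the GENCODE start.

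In GENCODE M21 (GRCm38) the genes lie in few places. Ccl3 (chr11:83647844-83649355), Ccl4 (chr11:83662584-83664683) and Ccl5 (chr11:83525778-83530518) share a cluster, with 13229 bases between Ccl3 and Ccl4. Tnf (chr17:35199381-35202007) lies between Ltb (chr17:35194439-35196320) and Lta (chr17:35203165-35205351). Csf2 (chr11:54247271-54249667) lies 15636 bases from Il3, of which no UMI was counted in the CD3-positive cells of either library. Xcl1 (chr1:164931644-164935527) and Ifng (chr10:118441046-118445892) each stand apart from the others. Xcl1 overlaps Gm20743 on the other strand, with 54 and 35 UMIs, and Csf2 overlaps Gm12223, with none in either library. Csf2 had 9 copies of ATTTA in its 317-base 3' untranslated region, 5 of them starting an ATTTATTTA. Its 28.4 copies per kilobase were reached or passed by 0.0864% of 20830 genes. Tnf had 8 copies, Ifng 6, Ccl3 5, Lta 3, Ccl4 2, Xcl1 1, and Ccl5 and Ltb 0.

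Over all CD3-positive cells 8 of the 9 genes had the higher level in the library labelled Irf4-/-, but only Xcl1 and Csf2 passed 1.5-fold. Of all genes with at least 20 UMIs in both libraries together, 52.0% had the higher level in that library. The median log2 ratio of the 9 genes was 0.52, against 0.01 over the 13383 genes with at least 20 UMIs in both libraries together. Of those genes 6.43% were past 1.5-fold higher in the library labelled Irf4-/- and 4.75% past 1.5-fold lower, beside 2 and 0 of the 9 genes. By class the counts were uneven. In gamma-delta cells 6 of 9 were past 1.5-fold higher (background 5.6%) and none lower (4.16%), and in Klre1-only cells 6 (6.34%) and none (4.52%). In other T cells 4 were higher (5.09%) and none lower (2.94%), and in cells with Cd8b1 and Klre1 3 were higher (7.33%) and none lower (4.38%). Cd8b1-only cells differed from this, with Xcl1 and Csf2 higher (5.5%) and Ccl3 and Ifng lower (4.97%), and a median of -0.18. Part of these calls depended on the processing. Under at least 1 alternative 2 of the 6 calls in gamma-delta cells (Ccl3 and Tnf) ended, as did 2 of 6 in Klre1-only cells (Ccl4 and Lta), 3 of 4 in other T cells (Xcl1, Ccl3 and Ccl4), 1 of 3 in cells with Cd8b1 and Klre1 (Ccl3) and 2 of 4 in Cd8b1-only cells (Ccl3 and Ifng).

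**Figure D1:**
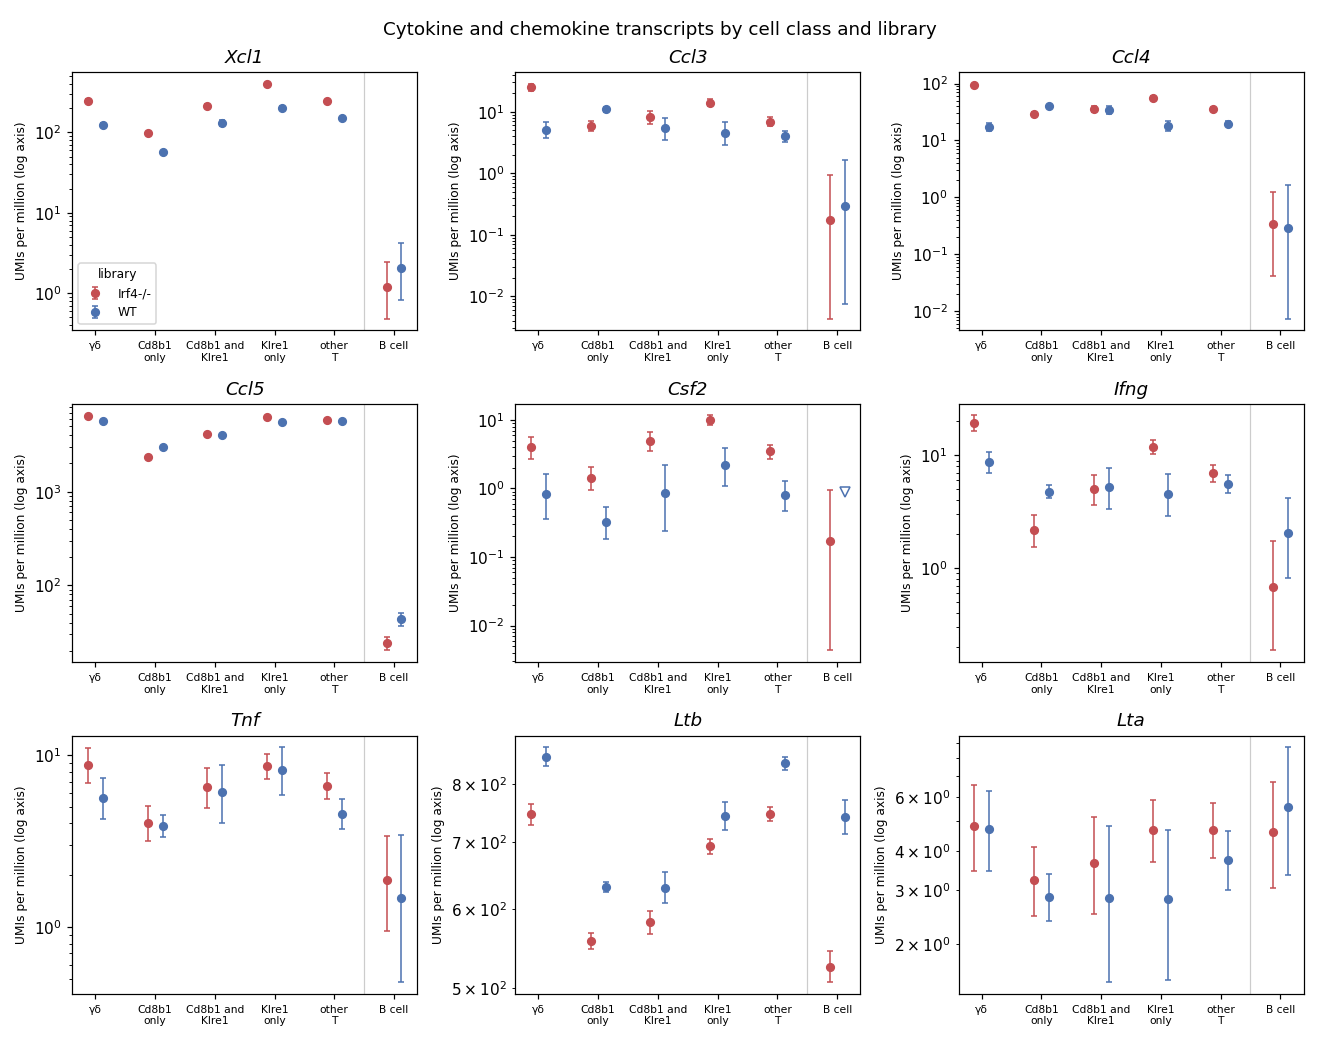
CPM (log axis) of each gene in the 5 CD3-positive classes and in B cells, 1 point per library, bars are exact Poisson 95% intervals and an open triangle is the level of 3 counts where none was seen. Both libraries stand far above B cells for Xcl1 and Ccl5, and Ltb in B cells is at 525 and 742 CPM, near the T cell classes.

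Xcl1, the ligand of Xcr1 on cross-presenting dendritic cells, was higher in the library labelled Irf4-/- in all 5 classes. Its level over all CD3-positive cells was 237 and 100.04 CPM, from 17370 and 8789 UMIs. Klre1-only cells held 394 and 199.7 CPM, gamma-delta cells 247 and 123, other T cells 246 and 151, cells with Cd8b1 and Klre1 215 and 131, and Cd8b1-only cells 97.5 and 56.3. The Klre1-only class was highest and the Cd8b1-only class lowest in both libraries, 4.04-fold and 3.54-fold apart. Gamma-delta and other T cells had overlapping intervals in the library labelled Irf4-/-, as did gamma-delta cells and cells with Cd8b1 and Klre1 in the library labelled WT. The log2 ratio over all CD3-positive cells was 1.25 (1.21 to 1.28), and by class it ran from 0.70 in other T cells to 1.0 in gamma-delta cells, each interval above 0.

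The difference in Xcl1 was also one of how many cells held it. At 2000 UMIs per cell a UMI was found in 30.2% (29.1 to 31.3) and 15.4% (14.8 to 16.1) of CD3-positive cells, and in 0.492% and 0.349% of B cells. At the deposited depth the shares were 70.4% and 37.7%, of CD3-positive cells with median depths of 9913 and 7251 UMIs. In the Klre1-only class the thinned shares were 43.6% and 30.8%, and in Cd8b1-only cells 16.1% and 8.45%. With the classes given the same weight in both libraries the log2 ratio was 0.83. The highest cell of the library labelled Irf4-/- was a Klre1-only cell of 18752 UMIs with 460 of Xcl1, 159 of Ccl4, 59 of Ccl3 and 166 of Ccl1, and the highest of the library labelled WT held 125 in 19071. Cells with at least 20 Xcl1 UMIs numbered 47 and 9 and held 14.1% and 5.59% of the Xcl1 UMIs, so most of the transcript came from cells with few copies.

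Ccl3 and Ccl4, the neighbouring chemokine genes, differed between the libraries in opposite directions in different classes. In gamma-delta cells Ccl4 stood at 93.0 and 17.2 CPM and Ccl3 at 25.0 and 5.12. In Klre1-only cells Ccl4 stood at 56.2 and 18.1 and Ccl3 at 14.1 and 4.58. Cd8b1-only cells had the lower value in the library labelled Irf4-/-, with Ccl4 at 28.8 and 40.3 and Ccl3 at 5.91 and 11. The log2 ratios of Ccl4 were 2.43 (2.19 to 2.68) in gamma-delta, 1.63 (1.32 to 1.96) in Klre1-only and -0.49 (-0.63 to -0.35) in Cd8b1-only cells. Those of Ccl3 were 2.29 (1.84 to 2.76), 1.62 (1.0 to 2.30) and -0.90 (-1.21 to -0.60). In other T cells they were 0.87 and 0.79, and in cells with Cd8b1 and Klre1 the intervals of both genes spanned 0. Gamma-delta cells had the highest CPM of both genes in the library labelled Irf4-/-, and Cd8b1-only cells in the library labelled WT. For Ccl4 in the latter, the interval of Cd8b1-only cells (38.5 to 42.2) overlapped that of cells with Cd8b1 and Klre1 (29.8 to 40.8).

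These levels rested on very few cells. At 2000 UMIs per cell Ccl4 was found in 3.93% and 3.49% of CD3-positive cells and Ccl3 in 1.19% and 1.07%, with intervals that overlap for both genes, and each was found in at most 0.0983% of B cells. The order of classes by thinned share differed from that by CPM. Labelled Irf4-/-, Ccl3 was found in 1.06% of gamma-delta and 2.34% of Klre1-only cells. Ccl4 was found there in 3.99% of gamma-delta cells and 5.40% of cells with Cd8b1 and Klre1. Labelled WT, Ccl4 was found in 4.20% of Cd8b1-only cells and 5.70% of cells with Cd8b1 and Klre1. The intervals of each pair overlapped. The 1% of cells with the highest counts held 76.1% and 76.8% of the Ccl3 UMIs and 62.9% and 58.4% of the Ccl4 UMIs. Cells with at least 20 Ccl4 UMIs, a limit chosen after the counts were seen, numbered 19 and 15 and held 49.3% and 32.4% of the Ccl4 UMIs. In gamma-delta cells labelled Irf4-/- 6 such cells held 77.9% of the Ccl4 UMIs, and none of the 1392 gamma-delta cells labelled WT reached 20. The highest, a gamma-delta cell of 16761 UMIs, had 405 of Ccl4, 130 of Xcl1, 114 of Ccl3, 22 of Nr4a1 and 11 of Egr1. Without the 10 highest cells of each class in each library the Ccl3 ratio was -0.02 in gamma-delta and 0.11 in other T cells. The Ccl4 ratio was then 0.65 and 0.19. In gamma-delta cells these 10 held 95.2% and 76% of the Ccl3 UMIs, of 20 and 22 cells with a Ccl3 UMI. In Klre1-only cells the Ccl4 ratio was 0.42 with class thresholds of 1 UMI.

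The high-Ccl4 cells of the 2 libraries carried different other transcripts and were of different classes. All 19 cells labelled Irf4-/- held Ccl3, 16 held Egr1 and 14 Nr4a1, genes induced early after antigen receptor stimulation, and none held the granzyme genes Gzmk or Gzmb. Of the 15 cells labelled WT 12 held Ccl3, 5 Egr1, 8 Nr4a1, 8 Gzmk and 6 Gzmb. Cd8b1-only cells were 3 of the 19 and 11 of the 15, and all 8 with Gzmk and all 6 with Gzmb were among these 11. The 4 remaining WT cells were other T cells, of which 4 held Nr4a1, 2 Egr1 and none Gzmk or Gzmb. The part of class in the difference was not tested. The median depth of the high-Ccl4 cells was 13083 and 6439 UMIs. The highest WT cell for Ccl4 was a Cd8b1-only cell of 5168 UMIs with 263 of Ccl4, 404 of Ccl5, 44 of Ccl3, 30 of Gzmb and 4 of Gzmk. Another WT Cd8b1-only cell held 178 of Ccl4, 52 of Ccl3, 99 of Xcl1, 15 of Tnf, 7 of Ifng, 22 of Egr1 and 3 of Gzmk.

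**Figure D2:**
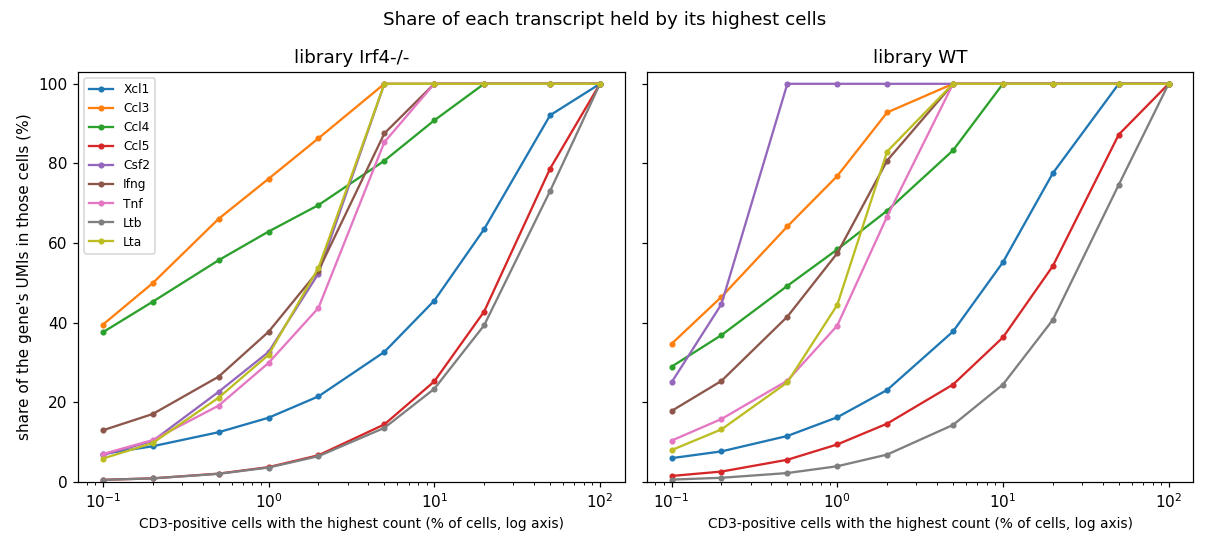
Share of each gene's UMIs (%) held by the CD3-positive cells with the highest count of that gene, against the share of cells (%, log axis), 1 panel per library. Labelled Irf4-/-, the curves of Ccl3 and Ccl4 rise first and those of Ltb and Ccl5 last; labelled WT, all Csf2 UMIs lie within the first 1% of cells, since so few cells held one. The 1% of cells with the highest counts held 76.1% of the Ccl3 UMIs and 3.61% of the Ltb UMIs in the library labelled Irf4-/-.

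Gzmk-positive cells, with at least 1 UMI of this granzyme of effector memory CD8 T cells, were nearly confined to the library labelled WT. They numbered 1 of 6714 and 280 of 11167 CD3-positive cells, and 231 of the 280 were Cd8b1 only. Those 231 cells were 4.34% of the WT Cd8b1-only class and held 74.4% of its Ccl3, 64.5% of its Ifng, 56.8% of its Ccl4 and 32.3% of its Ccl5 UMIs, but 7.24% of its Xcl1 and 2.69% of its Ltb. With Gzmk-positive cells left out, an alternative added after the data were seen, the Cd8b1-only ratios took the other sign. They were 1.02 (0.64 to 1.40) for Ccl3, 0.68 (0.52 to 0.84) for Ccl4, 0.16 for Ccl5 and 0.31 (-0.27 to 0.87) for Ifng. Over all CD3-positive cells 5 of the 9 genes were then past 1.5-fold higher, in place of 2, and the median of the 9 was 1.07. The share of all genes past 1.5-fold was not computed without these cells. The WT cells left out held 57.0% of the Ccl3, 40.2% of the Ccl4 and 31.2% of the Ifng UMIs of that library, so these ratios rose by construction. Genotype and animal cannot be told apart with 1 library each.

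Nr4a1-positive cells numbered 122 and 131 and held another part of the chemokine transcripts. They held 51.0% and 15.8% of the Ccl3, 50.6% and 27.8% of the Ccl4 and 10.6% and 5.42% of the Xcl1 UMIs, from 1.82% and 1.17% of the cells. In gamma-delta cells labelled Irf4-/- 27 such cells held 79.8% of the Ccl3 and 79% of the Ccl4. Without Nr4a1-positive cells, also added after the data were seen, the ratio over all CD3-positive cells was -0.36 for Ccl3 and 0.01 for Ccl4. The deeper library had the larger share of Nr4a1-positive cells. In the thinned cells Nr4a1 was found in 0.492% and 0.413% of CD3-positive cells, closer together than the 1.82% and 1.17% at the deposited depth. The part of depth in this share was not tested further.

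**Figure D3:**
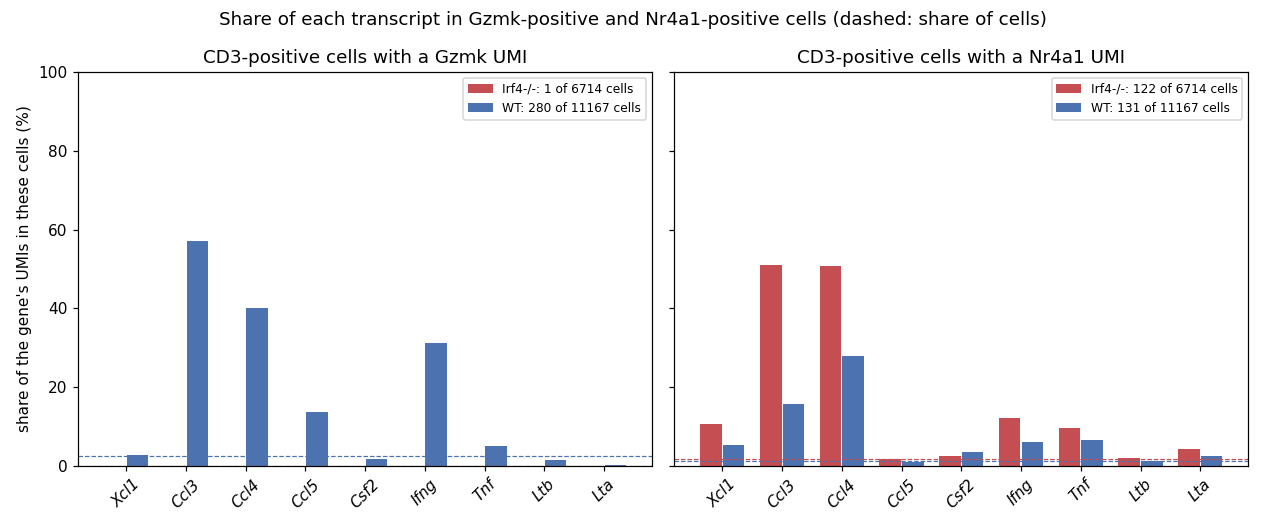
Share of each gene's UMIs (%) found in CD3-positive cells with a Gzmk UMI (left) and with an Nr4a1 UMI (right), bars by library, dashed lines the share of CD3-positive cells. Gzmk-positive cells of the library labelled WT hold 57.0% of its Ccl3 UMIs, and 1 cell of the library labelled Irf4-/- was Gzmk-positive.

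Ccl5, the chemokine message that memory-like T cells keep at rest, was found in most cells of both libraries. Its level over all CD3-positive cells was 4854 and 4189 CPM, and its thinned share 91.4% and 82.3%, against 4.82% and 9.19% of B cells. Gamma-delta cells held 6458 and 5695, Klre1-only cells 6204 and 5613, other T cells 5753 and 5706, cells with Cd8b1 and Klre1 4095 and 4015, and Cd8b1-only cells 2343 and 2995. The Cd8b1-only class was lowest in both libraries, and its ratio of -0.35 was the only one below 0. The ratio over all CD3-positive cells was 0.21, and with the same class weights in both libraries it was -0.02. The 1% of cells with the highest counts held 3.72% and 9.41% of the Ccl5 UMIs, and the highest cell held 406 and 587.

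Csf2, the growth factor GM-CSF, had the largest ratio of the 9 genes from few UMIs. All CD3-positive cells held 340 and 56 UMIs, 4.65 (4.17 to 5.17) and 0.637 (0.482 to 0.828) CPM. The log2 ratio was 2.87 (2.45 to 3.30), and 2.20 with the same class weights in both libraries. It was 2.28 in gamma-delta, 2.13 in Cd8b1-only, 2.50 in Cd8b1 and Klre1, 2.19 in Klre1-only and 2.11 in other T cells, with every interval above 0 and all 5 overlapping. Klre1-only cells had the highest level in both libraries, 9.97 and 2.19 CPM from 166 and 11 UMIs. In the library labelled WT 1 cell held 3 of the 11. The Klre1-only interval there (1.09 to 3.92) overlapped that of every class but Cd8b1-only cells (0.182 to 0.537). Csf2 was not a product of a few cells with many copies: 296 and 53 cells held a UMI, no cell held more than 5, and 35 and 2 cells held at least 2. The thinned share was 0.879% (0.67 to 1.13) and 0.108% (0.0556 to 0.188). B cells held 1 and 0 UMIs.

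Ifng differed between the libraries in the same directions as Ccl3 and Ccl4 in gamma-delta, Klre1-only and Cd8b1-only cells. Its level was 19.4 and 8.71 CPM in gamma-delta cells, 11.9 and 4.58 in Klre1-only cells, 6.92 and 5.58 in other T cells, 5.03 and 5.21 in cells with Cd8b1 and Klre1, and 2.16 and 4.77 in Cd8b1-only cells. Gamma-delta cells were highest in both libraries. The ratios were 1.15 (0.77 to 1.55), 1.38 (0.75 to 2.07), 0.31, -0.05 and -1.14 (-1.66 to -0.66), the intervals of the third and the fourth spanning 0. The thinned share was 1.48% and 1.18% of CD3-positive cells, with overlapping intervals, and 0.197% and 0.581% of B cells. The highest cells held 27 and 19 UMIs. That labelled Irf4-/- was a gamma-delta cell that also held 19 of Egr1 and 16 of Ccl4.

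Tnf and Lta, of the tumour necrosis factor family, had few UMIs, and in most classes the intervals of their ratios spanned 0. With the same class weights in both libraries the Tnf ratio over all CD3-positive cells was 0.27, below the interval of the unweighted ratio. Unweighted, Tnf stood at 6.63 and 4.61 CPM over all CD3-positive cells, from 485 and 405 UMIs, and its ratio was 0.52 (0.33 to 0.72). It passed 1.5-fold in gamma-delta cells (8.78 and 5.64), where the ratio was 0.64 (0.12 to 1.17). In other T cells it was 0.54 (0.16 to 0.93). In Cd8b1-only, Klre1-only and Cd8b1 and Klre1 cells the ratios lay between 0.05 and 0.10, with intervals that spanned 0. Lta stood at 4.20 and 3.28 CPM, with a ratio of 0.36 (0.12 to 0.59). Its ratio passed 1.5-fold in Klre1-only cells (0.75), but all 5 class intervals spanned 0, so no difference by class was detectable at this depth. The thinned share of Lta was 0.805% and 0.70%. B cells, which are known to make Lta, held it at 4.63 and 5.57 CPM and give no background for it.

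Ltb, the membrane partner of Lta, was found in most T and B cells and was the 1 gene of the 9 that was lower in the library labelled Irf4-/-. Its level was 666 and 716 CPM over all CD3-positive cells. Cd8b1-only cells held 557 and 632, cells with Cd8b1 and Klre1 582 and 631, Klre1-only cells 693 and 743, gamma-delta cells 747 and 853, and other T cells 747 and 840. The ratio was -0.10 (-0.12 to -0.09) over all CD3-positive cells and between -0.19 and -0.10 in the 5 classes, every interval below 0. B cells held 525 and 742, a ratio of -0.50. These differences are under 1.5-fold, and with 1 library each genotype and library cannot be told apart.

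**Figure D4:**
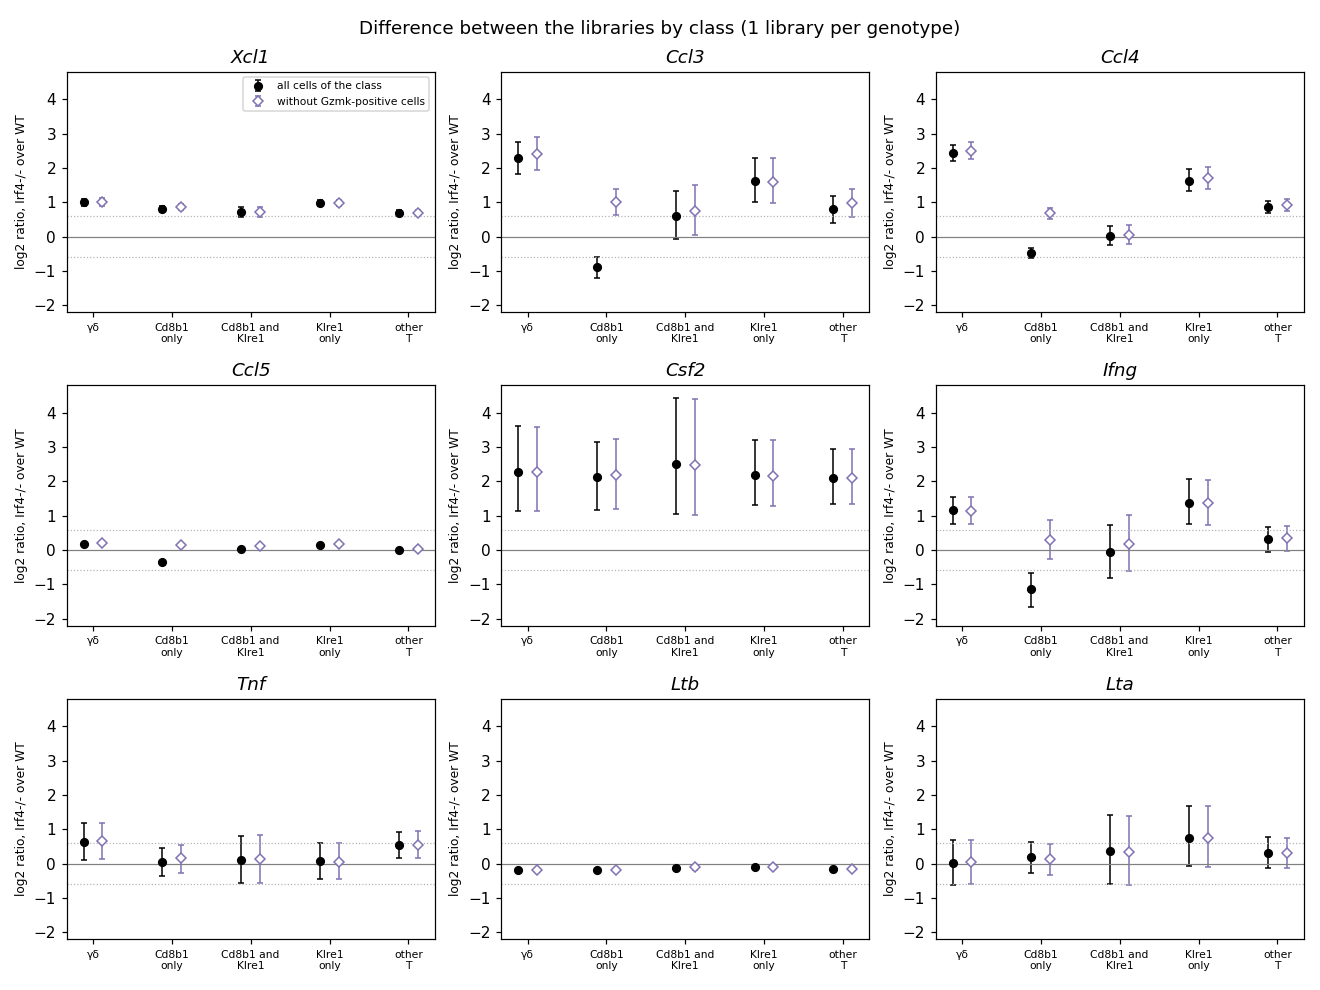
Log2 of the CPM in the library labelled Irf4-/- divided by that in the WT one, by class, with 95% counting intervals, for all cells (black circles) and without Gzmk-positive cells (open diamonds). Dotted lines mark 1.5-fold. Xcl1 and Csf2 lie above 0 and Ltb below 0 in all 5 classes, and the Cd8b1-only points of Ccl3, Ccl4, Ccl5 and Ifng lie below 0 with all cells and above 0 without Gzmk-positive cells.

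Ccl3, Ccl4 and Ifng were found in the same cells more often than the product of their shares. At 2000 UMIs per cell 29 and 59 CD3-positive cells held both, against 3.15 and 4.15 cells from the product of the shares. Ccl3 with Ifng was found in 6 and 22 cells against 1.18 and 1.41, and Ccl4 with Ifng in 8 and 36 against 3.89 and 4.61. Ltb was found with each other gene between 0.82 and 1.16 times as often as the product of the shares. These counts describe the libraries and share their depth.

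The genes also differed with the state of the cell. Levels were compared between CD3-positive cells with at least 2 UMIs of a state gene and those with none. With Nr4a1 (35 and 31 cells) Ccl4 was 6.96 and 6.72 log2 units higher, Ccl3 6.87 and 5.89, Tnf 3.65 and 4.32, Ifng 4.10 and 3.52 and Xcl1 3.24 and 2.85, while Ltb was at -0.55 and 0.07. With Ccr7, a homing receptor of naive and central memory cells (608 and 1255 cells), Ccl4 was at -2.09 and -2.33, Ifng at -2.57 and -3.30, Ccl3 at -1.69 and -3.18, and Xcl1 at -1.24 and -1.17. With Gzmk in the library labelled WT (164 cells, none in the other library) Ccl3 was at 6.59, Ccl4 at 5.65, Ifng at 4.90, Ccl5 at 3.24 and Xcl1 at 0.62. With Fcer1g, a signalling chain of natural killer and innate-like cells, Xcl1 was at 0.93 and 1.48 and Csf2 at 0.93 and 1.27. Ccl5 was at 0.65 and 0.69 with Fcer1g, Lta at 0.61 and 0.59, and Ifng at 0.54 and 0.47. Tnf was at 0.24 and 0.29 and Ltb at 0.17 and 0.24, while Ccl3 was at 0.52 and -0.44 and Ccl4 at -0.39 and -1.27. Ltb was at -0.33 and -0.27 with Ccr7 and at -0.58 with Gzmk.

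Of the genes with a mean of at least 50 CPM, those whose level over the 10 sums of class and library was most like that of Xcl1 were Dennd4a (Pearson r 0.984), Acap1, Cox8a, Gimap4 and Mpc1. For Ccl5 they were Gimap8 (0.974), Gimap6, Tecr, Prr13 and Fermt3, and for Ltb Itga4 (0.985), Gimap3, Gimap1, Sqstm1 and Zfp36l1. The 10 sums share libraries, depth and the gates, and the lists of 5 were the same with a pseudocount of 10 in place of 1.

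The receptors and regulators of these genes were described from lists chosen with results of these data known. Among the receptors, Ifngr2, a chain of the interferon gamma receptor, was past 1.5-fold lower at 0.67 and 1.76 CPM, a gene also found in 12.5% and 11.7% of thinned B cells. Of 24 inducers and regulators 5 were past 1.5-fold higher and none lower, beside 6.43% and 4.75% of all genes. These were Bhlhe40, a transcription factor that promotes cytokine production (ratio 1.51), Irf4 (1.30), Il12rb2 (1.0) and Il12rb1 (0.68), the chains of the interleukin-12 receptor, and Irf8 (0.66), which was named after its value was seen. These ratios are over all CD3-positive cells, and the part of the class shares in them was not tested. By class Il12rb2 stood at 9.51 and 8.10 CPM in gamma-delta cells and 10.4 and 8.13 in other T cells. It stood at 13.5 and 8.17 in Klre1-only, 2.96 and 1.58 in Cd8b1-only, and 8.35 and 3.04 in Cd8b1 and Klre1 cells. None of 6 genes of message decay and none of 9 immediate-early genes passed 1.5-fold. In these 2 lists the ratios of largest size were those of Zfp36l2 (0.36) and of Dusp1 (0.53), Egr2 (0.52) and Nr4a1 (0.51).

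Of 17 other T cell cytokines with at least 20 UMIs, 4 were past 1.5-fold higher and 2 lower, beside the same 6.43% and 4.75%. Several rested on 1 cell. All 166 Ccl1 UMIs of the library labelled Irf4-/- came from the Klre1-only cell with the highest Xcl1 count, so its ratio of 7.64 is that of 1 cell. Of the 112 Spp1 UMIs of the library labelled WT (ratio -4.22), 92 came from 1 cell. Fasl, the ligand of the death receptor Fas, was higher at 24.9 and 9.69 CPM (ratio 1.36), from 1314 and 682 cells. By class Fasl was close in Cd8b1-only cells, at 8.50 and 7.33 CPM. It stood at 39.3 and 19.99 in gamma-delta, 39.9 and 15.9 in Klre1-only, 27.1 and 10.4 in Cd8b1 and Klre1, and 21.1 and 8.48 in other T cells. Il2 (1.03) and Tnfsf11 (1.05), chosen for mention after their values were seen, were also higher over all CD3-positive cells. The part of the class shares in the ratios of Fasl, Il2 and Tnfsf11 was not tested. Il10 had 0 and 23 UMIs, at least 6.38-fold lower against the floor of 3 counts, and 22 of the 23 were in Cd8b1-only cells. Of the 23, 12 came from 1 cell, and the other 11 would not reach the minimum of 20 UMIs.

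Markers of other cell types also differed between the libraries in the CD3-positive cells. The 2 erythroid genes summed to 165 and 609 CPM, from 7.58 to 356 and from 10.2 to 1281 across the classes, and in gamma-delta cells to 7.58 and 1281. The 4 mast cell and basophil genes summed to 19.5 and 35.4, the 5 neutrophil genes to 13.4 and 6.51, the 4 monocyte and macrophage genes to 8.54 and 11, and the 5 B cell genes to 193 and 231. The 7 natural killer and innate lymphoid genes summed to 289.5 and 197, and of the 4 genes for type 2 innate lymphoid cells Areg and Il5 were at 0 in both libraries. Their part in the results was not tested. In B cells, where the erythroid sum was 11 and 2414, Xcl1 stood at 1.20 and 2.05 CPM, both with 7 UMIs.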

How the data were processed

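The values are raw UMI counts per gene and barcode, which the authors deposited for 2 libraries of a 10x 3' v3 kit, made with Cell Ranger 6.1.1 per the file headers and mm10 per the submitters' processing notes. No annotation release is named in the sources used here. The kit text in the labels speaks of nuclei, the sort of cells. The deposited tables held 8147 and 12732 barcodes with 82599767 and 95031071 UMIs. Barcodes with at least 500 genes, at least 1000 UMIs and under 10% mitochondrial UMIs were kept (7955 and 12367). No doublet caller was run. Barcodes with CD3 and at least 2 Cd79a UMIs, and those with neither, were left out of the classes.

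Counts were summed per class and library and scaled to CPM (UMIs per 1000000 UMIs of the same cells). Ratios have exact conditional binomial intervals, levels exact Poisson intervals and shares exact Clopper-Pearson intervals, all at 95% and for counting error only. Shares used cells thinned to 2000 UMIs (35 and 71 kept cells were shallower). A gene counted as past 1.5-fold only with at least 20 UMIs in both libraries together. A count of 0 was bounded by 3 counts. There is 1 library per group, so no test was made. All 9 genes were described in each class. From each pathway list up to 4 genes with the largest ratio were named, except 1 result that is not reported here, and for the 3 genes with the most UMIs the 5 genes most like them. The genes and lists were chosen with earlier results of these data known. Alternatives changed the scaling, cell filter, class thresholds, thinning, class weights and the cells kept. Python 3.11.15, numpy 2.4.6, scipy 1.17.1, pandas 2.3.3 and matplotlib 3.10.9 were used, with edgeR 4.0.16 in R 4.3.3 for TMM factors only. The code was tested on simulated data.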

Additional observations from a re-analysis of the deposited data

Results flagged for a closer look

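For 4 of the genes the libraries differed in opposite directions in 2 classes, and none of these differences between classes was tested. The log2 ratio of Ccl3, the Irf4-/- library over the WT one by label, was 2.29 in gamma-delta and -0.90 in Cd8b1-only cells. For Ccl4 these ratios were 2.43 and -0.49, and for Ccl5 0.18 and -0.35. Ifng stood at 1.38 in Klre1-only and -1.14 in Cd8b1-only cells.

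Barcodes with CD3 and Cd79a UMIs (124 and 196), which belong to no class above, also held more of several genes in the library labelled Irf4-/-. The log2 ratio was 1.16 for Xcl1 (301 and 150 UMIs), 2.48 for Ccl3 (80 and 16), 3.74 for Ccl4 (552 and 46) and 4.32 for Csf2 (18 and 1), whose UMIs do not reach the minimum of 20 used for calls. In the library labelled Irf4-/- 1 barcode of 52891 UMIs held 283 of the Ccl4, 36 of the Xcl1 and 15 of the Csf2 UMIs, and 1 of 13250 UMIs held 59 of the Ccl3. Without the highest barcode of each library, left out after the data were seen, the ratio was 1.10 for Xcl1, 2.96 for Ccl3 (21 and 3 UMIs) and 3.40 for Ccl4, and Csf2 had 3 and 0 UMIs.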

How the results depend on the processing

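Of 117 values over all CD3-positive cells, 90 moved by less than their counting interval, 24 moved further and 3 took the other sign. Of the values in single classes 438 moved by less and 85 further, and 8 whose interval lay to 1 side of 0 took the other sign. Another 21, counted among the 438 and 85, changed sign from a ratio whose interval spans 0, for Ccl4, Ifng, Tnf and Lta. Xcl1 and Csf2 kept their direction over all CD3-positive cells, at 0.83 to 1.29 and 2.20 to 3.12, and Ltb at -0.16 to -0.08. The ratio of Ccl3 over all CD3-positive cells was -0.37 as a mean over cells and -0.36 without Nr4a1-positive cells. In gamma-delta cells it was -0.023 without the 10 highest cells of that class in each library. Without Gzmk-positive cells the Cd8b1-only ratios were 1.02 for Ccl3, 0.68 for Ccl4, 0.16 for Ccl5 and 0.31 for Ifng. Over all CD3-positive cells 5 genes then passed 1.5-fold and the median was 1.07, with no share of all genes computed beside them. The median was 0.28 as a mean over cells. For Ccl5 the ratio was -0.017 with the classes reweighted, -0.025 in cells with Cd8b1 and Klre1 at a threshold of 3 UMIs and -0.43 with classes called on thinned counts, and -0.0032 in other T cells with the stricter cell filter. Leaving out Gzmk-positive or Nr4a1-positive cells was chosen after the data were seen. Beyond these constructions the cause was not tested. No replicate could be left out with 1 library per group. No paired analysis was possible because each group has 1 library. Depth limits Csf2, Lta, Tnf and Ifng, of which single classes held few UMIs.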

Other observations

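Barcodes with neither CD3 nor Cd79a UMIs at the gates (85 and 110) held Ccl3 at 104 and 89.4 CPM, from 111 and 67 UMIs, above its level in each T cell class. The barcode with the most Ccl3 among them held 29 of 10097 UMIs in the library labelled Irf4-/-, with 308 of Mcpt8 and 451 of Prss34, genes of basophils. In the library labelled WT it held 27 of 14425, with 509 and 506. The 4 mast cell and basophil genes summed to 7918 and 4434 CPM in these barcodes, and the 2 erythroid genes to 21711 and 20787.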
